A study of Homo sapiens with 18 samples.

Results

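How knockdown of the transcription factor E2F1 altered the response of prostate cancer cells to androgen was measured as a difference of responses. It is the change with R1881 in cells given E2F1 siRNA minus the change with R1881 in cells given control siRNA. Of the 18 libraries of the series, 12 make up this difference, as 4 groups of 3 biological replicates. These were E2F1 siRNA with R1881, E2F1 siRNA with vehicle, control siRNA with R1881 and control siRNA with vehicle. All were LNCaP cells, an established androgen-responsive prostate cancer line, kept in a medium deprived of androgen by charcoal stripping of the serum. R1881, a synthetic androgen, was given at 0.1 nM and the vehicle was ethanol. RNA was taken 48 h later. The control was a non-targeting siRNA pool, the E2F1 siRNA was likewise a pool, and a further pool against E2F2 made up the other 6 libraries. Those 6 also entered the filter on low counts and the estimate of spread behind each SE and p-value. The table lists 58037 genes, of which 15185 passed a filter on low counts, and all of these were examined.

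Androgens switch on genes of the secretory prostate epithelium such as KLK3. In LNCaP cells they also stimulate growth at low doses. E2F1 binds the promoters of genes for DNA synthesis and is held inactive by the retinoblastoma protein until late G1 phase, when phosphorylation by cyclin-dependent kinases releases it.

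Levels are CPM, a count scaled to the library total, with totals adjusted by the TMM method. Changes are log2 values ± SE from one edgeR fit (n = 3 libraries per group), and p-values come from its quasi-likelihood test. Benjamini-Hochberg adjustment ran over all genes tested, and a gene was called at an adjusted p under 0.05. The labels call the replicates biological and do not say which cultures they came from, so the p-values measure the spread between these libraries. Depth was 10930204 to 14819879 counts per library. The third replicate stood apart in every group. The chi-square per degree of freedom across genes was 1.79 to 4.42 between replicates 1 and 2, and 7.98 to 92.5 where replicate 3 was one of the pair. Of the luminal epithelial markers, KRT8 was at 386 to 1221 CPM and FOXA1 at 435 to 533 in the 12 libraries. Of 20 markers of other cell types, 8 had 0 counts in all 12 libraries. The highest of the 20 were COL1A1 at 11 to 33.4 CPM, VWF at 6.23 to 18.8 and COL3A1 at 0.876 to 7.07. The summed level of the 20 was 23.2 to 27.3 CPM with E2F1 siRNA and R1881 and 25.8 to 29.5 with E2F1 siRNA and vehicle. It was 35.1 to 37.2 with control siRNA and R1881 and 35.5 to 58 with control siRNA and vehicle. In bulk RNA, fewer cells in a state and less RNA per cell cannot be told apart.

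E2F1 itself was low in every library given its siRNA. The gene (ENSG00000101412.12) lies on GRCh38 chromosome 20, 33675683 to 33686404, minus strand. E2F1 measured 10.1, 8.69 and 10.3 CPM with E2F1 siRNA and R1881 and at 5.79, 5.92 and 8.77 CPM with E2F1 siRNA and vehicle. With control siRNA it stood at 73.4, 68.6 and 81.2 CPM with R1881 and at 35.2, 33.6 and 43 CPM with vehicle. No knockdown library overlapped a control library. R1881 moved E2F1 by 0.50 ± 0.17 with E2F1 siRNA (adjusted p = 0.0556), against a rise of 1.00 ± 0.16 with control siRNA (adjusted p = 0.000173). The difference of these responses was -0.49 ± 0.23 and was not called (adjusted p = 0.499).

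The response to R1881 differed between E2F1 siRNA and control siRNA in 104 genes, which is 0.685% of those tested. In 57 of them (0.375% of all genes) the response was higher with E2F1 siRNA and in 47 (0.31%) it was lower. R1881 changed 3009 genes (19.8%) with E2F1 siRNA, 1528 upward (10.1%) and 1481 downward (9.75%). It changed 4105 genes (27%) with control siRNA, 2093 upward (13.8%) and 2012 downward (13.2%). Sorted by these calls, the response was lost with E2F1 siRNA in 34 of the 104 genes, blunted in 19, gained in 19, amplified in 22 and reversed in 10. A lost response is one called with control siRNA only and smaller with E2F1 siRNA, and a gained one is the converse. Blunted and amplified responses were called in both with the same sign, and reversed ones were called in both with opposite signs. A response that was not called is not shown to be absent. At the threshold, BUB1B lay just inside at an adjusted p of 0.0498 and KMT2C just outside at 0.0502. The sizes of the difference among called genes ran from 0.42 to 2.28 log2 units.

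The number of calls depended on the libraries used and on the fit. With the replicate number as a block, 696 genes were called, all of the 104 among them. A fit of the 12 libraries alone called 21 genes, all of them among the 104. The count was 0 without all libraries of replicate number 1, 0 without those of number 2 and 1844 without those of number 3. Without replicate 1, 2 or 3 of E2F1 siRNA with R1881, 38, 35 and 45 genes were called. For E2F1 siRNA with vehicle these counts were 37, 84 and 77, for control siRNA with R1881 they were 39, 29 and 78, and for control siRNA with vehicle they were 63, 78 and 250. The counts below per class and per list move with this, and the sizes of the changes are given beside them.

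**Figure D1:**
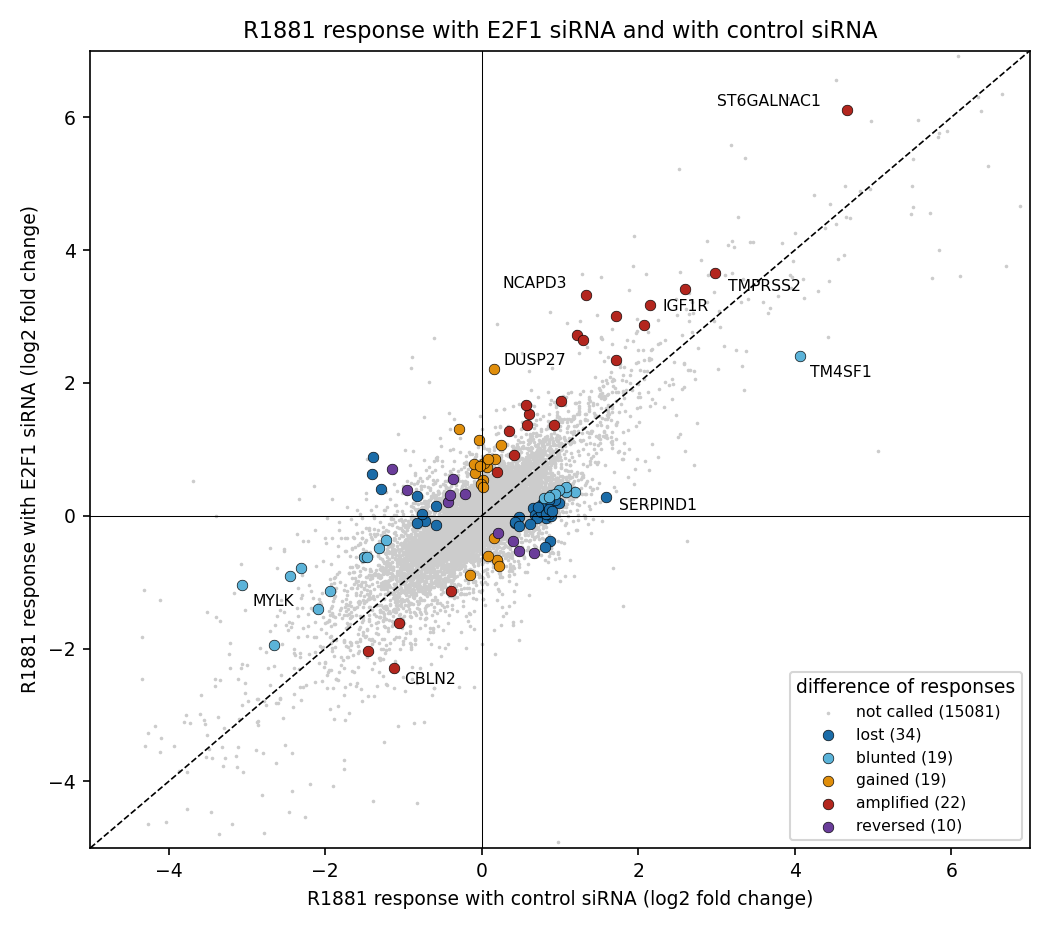
Each point is 1 gene, placed by its R1881 response with control siRNA (x axis, log2 fold change) and with E2F1 siRNA (y axis, log2 fold change), and the dashed line marks equal responses. The 104 called genes are coloured by class over the genes not called in grey, of which 26 lie outside the axes. Lost genes gather along the horizontal zero line, and reversed genes lie in the upper left and lower right. Amplified rises lie above the diagonal and amplified falls below it.

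In which treatment the knockdown moved these genes was read from E2F1 siRNA against control siRNA with each treatment. With R1881 it changed 1418 of all genes tested (9.34%) and with vehicle 802 (5.28%). Of the 104 genes, 79 were called with R1881 and 41 with vehicle. The difference of responses is the difference between these effects, so called genes must have at least one sizeable effect, and nothing is drawn from the totals. The split by class is given as counts and was not tested. Of the 25 lost genes that R1881 raised in control cells, the knockdown effect was called with R1881 only in 21, with vehicle only in 2 and with both in 2. Among the 10 blunted genes that R1881 lowered in control cells, it was called with R1881 only in 4, with vehicle only in 5 and with both in 1. Of the 18 amplified genes that R1881 raised, 11 were called with R1881 only, 4 with vehicle only and 3 with both. For the 14 genes with a gained rise these counts were 7, 6 and 1, and for the 5 gained falls 3, 2 and 0. The 9 lost falls had 3, 3 and 3, the 9 blunted rises 6, 1 and 2, and the 4 amplified falls 4, 0 and 0. Among reversed genes, the 6 that rose under E2F1 siRNA had 2, 2 and 2 and the 4 that fell had 2, 0 and 2.

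**Figure D2:**
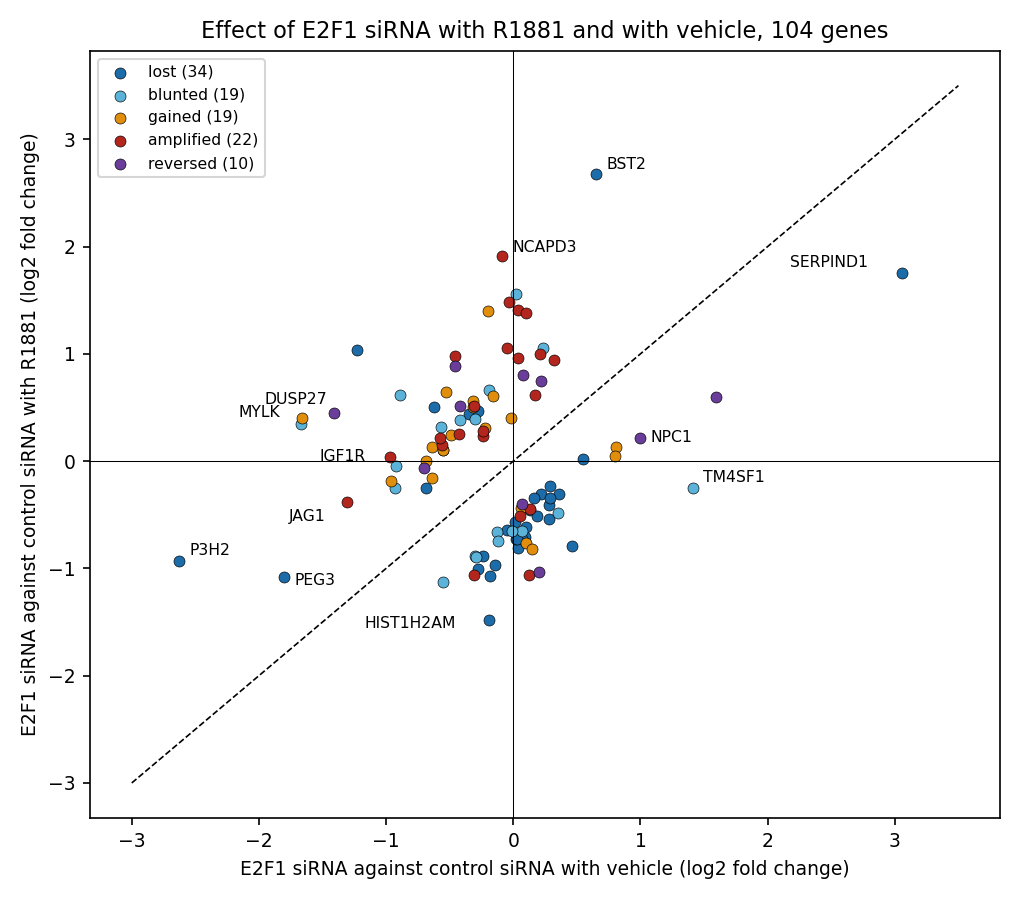
Each point is 1 of the 104 called genes, placed by the effect of E2F1 siRNA against control siRNA with vehicle (x axis, log2 fold change) and with R1881 (y axis, log2 fold change), coloured by class; on the dashed line the effects are equal. Most lost genes lie low on the y axis and near 0 on the x axis, NCAPD3 lies high on the y axis at an x of -0.09, and IGF1R lies left at a y of 0.04.

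Of the 104 genes, 17 stood on a cell cycle list, 12 in the lost class, 5 in the blunted class and 0 in the others. Among all 15185 genes tested, these lists held 49 replication, 57 mitosis, 37 repair, 24 histone and 15 G1 regulator genes. The lists were chosen with earlier results of these data known, so nothing is drawn from the count of 17. Genes for DNA replication rose with R1881 in control cells, and most were not called as changed by it with E2F1 siRNA. Of 49 G1/S and DNA replication genes, all tested, 9 had a lower response with E2F1 siRNA and 0 a higher one in the edgeR test, and 39 had an unadjusted p under 0.05, against 1544 of all 15185 genes (10.2%). All 49 differences lay below 0, with a median of -0.69, against -0.01 over all genes, of which 7728 of 15185 lay below 0. With RLE scaling all 49 were again below 0. R1881 raised 4 of the 49 with E2F1 siRNA, with a median response of 0.09, and 42 with control siRNA, with a median of 0.76. With the replicate block 37 were called, where 396 of all 15185 genes were called lower and 300 higher. These totals are also the background for the block counts of the lists below. The count of 9 became 5 without replicate 1 of E2F1 siRNA with R1881, of E2F1 siRNA with vehicle or of control siRNA with R1881. It was also 5 with replicate 2 of control siRNA with R1881 left out. Leaving out replicate 3 of control siRNA with vehicle gave 16.

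The level of the replication genes stood out in 1 group of the 4. The median of the 49 genes, taken against their mean with control siRNA and vehicle, was 0.01, 0.05 and 0.1 log2 units in the libraries with E2F1 siRNA and R1881 and 0.03, -0.07 and 0.02 with E2F1 siRNA and vehicle. In control cells the median was 0.79, 0.82 and 0.8 with control siRNA and R1881 and 0.03, 0.06 and -0.1 with control siRNA and vehicle. The 3 control libraries with R1881 lay above all 9 others, which overlapped. E2F1 siRNA lowered 37 of the 49 with R1881, where the background of falls was 4.92%, and 3 with vehicle, where it was 2.92%.

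**Figure D3:**
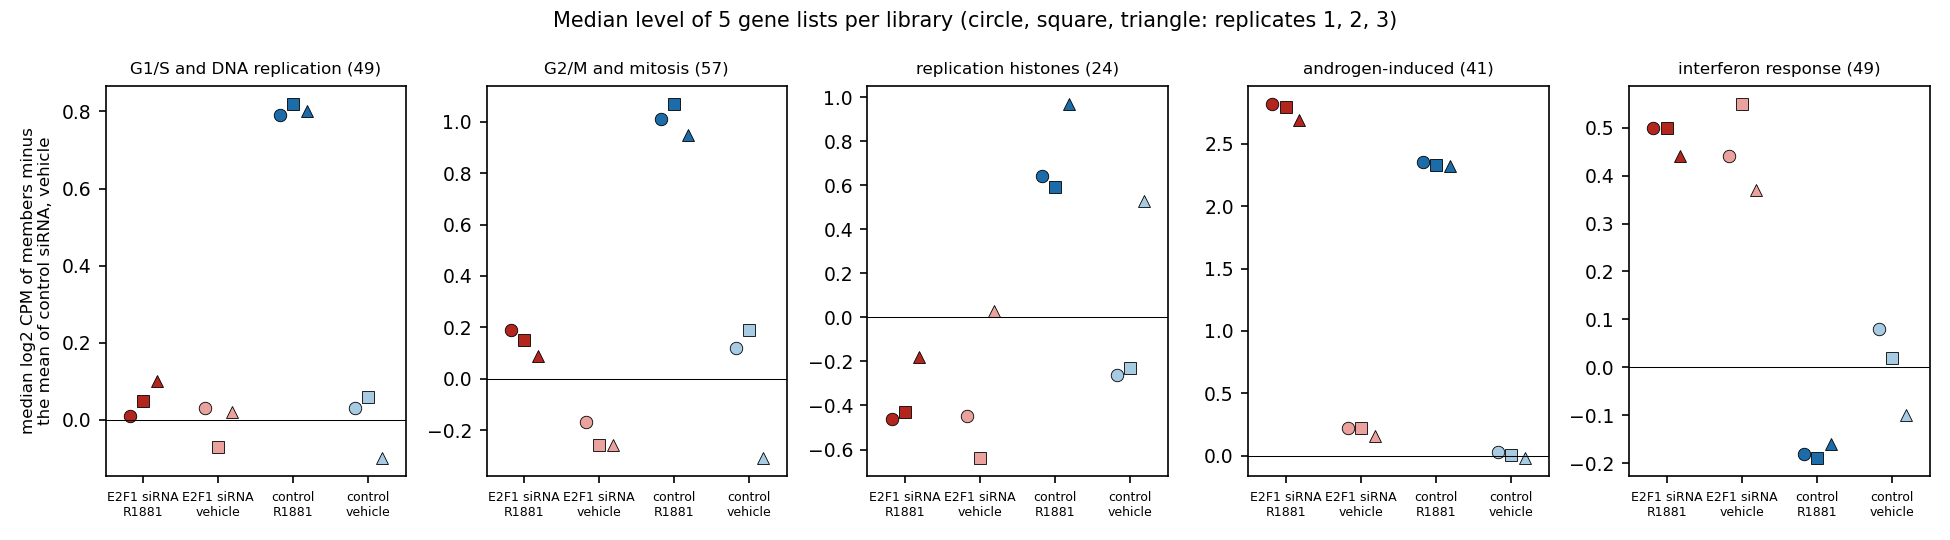
Each point is the median, in 1 library, of the log2 CPM of a list's members relative to their mean in the control siRNA libraries with vehicle (y axis, log2 units), by group (x axis), for 5 lists with the number of members in brackets. Replication genes lie at 0.79 to 0.82 with control siRNA and R1881 and between -0.1 and 0.1 in the other groups, while androgen-induced genes lie at 2.69 to 2.82 with E2F1 siRNA and R1881 and at 2.32 to 2.35 with control siRNA and R1881.

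MCM4, a subunit of the replicative helicase, had 166, 177 and 173 CPM with E2F1 siRNA and R1881 and 179, 169.7 and 178 CPM with E2F1 siRNA and vehicle. With control siRNA it had 300.3, 309 and 298 CPM with R1881 and 169, 184 and 159.5 CPM with vehicle. Control libraries with R1881 stood above the other 9, which overlapped. R1881 moved MCM4 by -0.03 ± 0.08 with E2F1 siRNA (adjusted p = 0.867), and it rose 1.77-fold with control siRNA (0.82 ± 0.08), a difference of -0.85 ± 0.11 (adjusted p = 0.00218). MCM10, which acts at origins as the helicase is activated, had 35.2, 34.5 and 34.1 CPM with E2F1 siRNA and R1881 and 34.6, 36.2 and 33 CPM with E2F1 siRNA and vehicle, against 73.3, 75.4 and 69.1 CPM with control siRNA and R1881 and 39.9, 41.9 and 35.9 CPM with control siRNA and vehicle. Its response was 0.00 ± 0.10 with E2F1 siRNA and a rise of 0.89 ± 0.10 with control siRNA (difference -0.89 ± 0.14, adjusted p = 0.00647). TYMS, thymidylate synthase, had 95.9, 104 and 96.2 CPM with E2F1 siRNA and R1881 and 88.8, 82.9 and 87.3 CPM with E2F1 siRNA and vehicle. With control siRNA it had 159.8, 168 and 157 CPM with R1881 and 84.6, 84.6 and 75.1 CPM with vehicle. The response was 0.19 ± 0.08 with E2F1 siRNA (adjusted p = 0.137) and a 1.98-fold rise with control siRNA (0.99 ± 0.08), a difference of -0.80 ± 0.12 (adjusted p = 0.00469).

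CDC6, which loads the helicase onto origins, kept part of its response and falls in the blunted class. It had 71.5, 80.7 and 77.4 CPM with E2F1 siRNA and R1881 and 59.3, 58 and 62.1 CPM with E2F1 siRNA and vehicle, against 107, 109.9 and 104 CPM with control siRNA and R1881 and 51, 46.2 and 43 CPM with control siRNA and vehicle. The 4 groups did not overlap. CDC6 rose 1.28-fold with E2F1 siRNA (0.36 ± 0.09) and 2.29-fold with control siRNA (1.19 ± 0.09), a difference of -0.84 ± 0.13 (adjusted p = 0.00647). In vehicle the knockdown raised it by 0.35 ± 0.09 (adjusted p = 0.0338). FEN1, the nuclease that trims lagging-strand flaps, rose by 0.36 ± 0.08 with E2F1 siRNA and by 1.08 ± 0.08 with control siRNA (difference -0.72 ± 0.11, adjusted p = 0.00647). The calls of MCM4, MCM10, TYMS, CDC6 and FEN1 held without any 1 of the 12 libraries. FEN1 overlaps FADS2 on the same strand by 4265 bases, and the difference of FADS2 was 0.03.

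The promoters of 3 of these replication genes are shown because E2F factors are known to bind promoters of this group. They run from 250 bases before to 50 after the annotated start, 5′ to 3′ on the plus strand, from RefSeq on GRCh38.p14. Capitals mark exact matches to TTTCCCGC or TTTGGCGC on either strand, where GCGGGAAA is the first read on the other strand.
CDC6, chr17:40287629-40287928: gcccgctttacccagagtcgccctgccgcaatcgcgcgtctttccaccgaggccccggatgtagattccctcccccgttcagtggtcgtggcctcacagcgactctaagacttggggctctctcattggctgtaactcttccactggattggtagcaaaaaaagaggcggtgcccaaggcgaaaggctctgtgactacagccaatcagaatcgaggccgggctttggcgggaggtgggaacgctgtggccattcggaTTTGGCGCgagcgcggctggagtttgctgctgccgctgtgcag
TYMS, chr18:657403-657702: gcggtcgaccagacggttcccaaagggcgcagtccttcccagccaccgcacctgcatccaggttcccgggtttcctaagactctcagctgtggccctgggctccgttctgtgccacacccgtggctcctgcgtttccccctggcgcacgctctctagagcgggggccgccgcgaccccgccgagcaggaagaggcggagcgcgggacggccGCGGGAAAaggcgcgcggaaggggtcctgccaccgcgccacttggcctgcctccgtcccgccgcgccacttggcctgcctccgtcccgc
MCM10, chr10:13161308-13161607: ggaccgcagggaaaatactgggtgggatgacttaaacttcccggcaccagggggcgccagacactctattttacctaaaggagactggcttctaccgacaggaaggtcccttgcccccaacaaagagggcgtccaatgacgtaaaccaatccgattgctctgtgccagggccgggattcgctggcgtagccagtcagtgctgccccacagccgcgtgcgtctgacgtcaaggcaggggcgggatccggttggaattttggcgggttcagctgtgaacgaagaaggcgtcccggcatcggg
CDC6 and TYMS hold 1 exact match each, and MCM10 holds none in the window. The stretch tttggcgg, 1 base off TTTGGCGC, stands unmarked in the windows of CDC6 and MCM10. A window without capitals is therefore not shown to lack a related site. Over all 27305 promoters in the table, 631 (2.31%) hold a match. The windows were chosen with the values known, and binding was not measured.

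Genes of other cell cycle phases moved in the same direction with fewer calls. Of 57 G2/M and mitosis genes, 3 were called lower and 0 higher by edgeR, and 32 had an unadjusted p under 0.05, against 10.2% of all genes. All 57 differences were below 0, also with RLE scaling, and their median was -0.61. R1881 raised 13 of the 57 with E2F1 siRNA (median 0.38) and 50 with control siRNA (median 0.97), and 30 of the differences were called with the replicate block. When single libraries were left out the count was 9 without replicate 3 of control siRNA with vehicle, 4 without replicate 2 of E2F1 siRNA with vehicle, 1 without replicate 2 of control siRNA with vehicle and 0 without each of the other 9. Their level differed from that of the replication genes in vehicle: the library medians were 0.19, 0.15 and 0.09 with E2F1 siRNA and R1881 and -0.17, -0.26 and -0.26 with E2F1 siRNA and vehicle, against 1.01, 1.07 and 0.95 with control siRNA and R1881 and 0.12, 0.19 and -0.31 with control siRNA and vehicle. Replicate 3 of the last group lay below the knockdown libraries with vehicle.

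The called mitosis genes were TPX2, BIRC5 and BUB1B. TPX2, which organises spindle microtubules, had 132, 135 and 129.9 CPM with E2F1 siRNA and R1881 and 108, 99.4 and 113 CPM with E2F1 siRNA and vehicle, against 236, 245 and 247 CPM with control siRNA and R1881 and 136, 139 and 120.1 CPM with control siRNA and vehicle. TPX2 rose by 0.31 ± 0.09 with E2F1 siRNA and by 0.88 ± 0.09 with control siRNA (difference -0.58 ± 0.12, adjusted p = 0.0484). The inhibitor of apoptosis and chromosomal passenger BIRC5 rose by 0.38 ± 0.09 and by 0.98 ± 0.09 in the same order (difference -0.60 ± 0.13, adjusted p = 0.0484). BUB1B, a kinase of the spindle checkpoint, moved by 0.07 ± 0.13 with E2F1 siRNA (adjusted p = 0.796) and rose by 0.90 ± 0.13 with control siRNA (difference -0.82 ± 0.18, adjusted p = 0.0498). Each of these 3 calls was lost without 10 of the 12 libraries taken singly, with adjusted p up to 0.145.

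Replication-dependent histone genes, transcribed in S phase, followed this direction. Of 24 tested out of 35 listed, 2 were called lower and 0 higher by edgeR, 8 had an unadjusted p under 0.05 and 20 were called with the replicate block. All 24 differences were below 0, also with RLE scaling, with a median of -0.71. Leaving out single libraries moved the count of 2 to between 0 and 4, the highest without replicate 3 of control siRNA with vehicle. R1881 raised 0 of them with E2F1 siRNA and 12 with control siRNA. HIST1H4B had 79.1, 84.3 and 79.1 CPM with E2F1 siRNA and R1881 and 88.5, 73.3 and 85 CPM with E2F1 siRNA and vehicle, against 174, 158 and 157 CPM with control siRNA and R1881 and 99.5, 102 and 98.6 CPM with control siRNA and vehicle. Its difference was -0.73 ± 0.13 (adjusted p = 0.0197). HIST1H2AM had 3.61, 3.5 and 4.17 CPM with E2F1 siRNA and R1881 and 10.8, 10.7 and 9.95 CPM with control siRNA and R1881 (difference -1.29 ± 0.24, adjusted p = 0.0206). Their calls were lost without 6 and 5 single libraries, with adjusted p up to 0.0718 and 0.0764. Histone genes have near-identical copies, and HIST1H2AM overlaps HIST1H3J, so the values of single members are uncertain. The list median was higher in replicate 3 of every group than in replicates 1 and 2, and its part in the result was not tested.

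DNA repair genes had 2 lower and 0 higher calls by edgeR among 37 tested, with 22 at an unadjusted p under 0.05, a median of -0.64 and 15 lower calls with the replicate block. Their median response was 0.08 with E2F1 siRNA and 0.75 with control siRNA, and the count of 2 was 0 to 2 without single libraries. CHEK2, the checkpoint kinase downstream of ATM, had 18.4, 18.2 and 15.4 CPM with E2F1 siRNA and R1881 and 18.6, 16.4 and 15.9 CPM with E2F1 siRNA and vehicle, against 24.8, 26.3 and 24.7 CPM with control siRNA and R1881 and 15.1, 14.5 and 12.3 CPM with control siRNA and vehicle. The difference was -0.82 ± 0.16 (adjusted p = 0.0235). UBE2T, the ubiquitin-conjugating enzyme of the Fanconi anaemia pathway, rose by 0.43 ± 0.09 with E2F1 siRNA and by 1.07 ± 0.09 with control siRNA (difference -0.64 ± 0.13, adjusted p = 0.0282). Without single libraries these calls were lost 6 and 9 times of 12, with adjusted p up to 0.0886 and 0.103.

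Of the regulators of G1 phase, CDK2 alone among 15 tested was called. An unadjusted p under 0.05 was found for 8 of the 15, against 10.2% of all genes. Their median difference was -0.3, with 9 below 0 and 6 above, and the range was -0.71 to 2.69. CDK2, which phosphorylates the retinoblastoma protein with cyclin E, had 78.1, 77.2 and 71.9 CPM with E2F1 siRNA and R1881 and 67.4, 59.9 and 66.5 CPM with E2F1 siRNA and vehicle, against 120.2, 120 and 108 CPM with control siRNA and R1881 and 63.1, 59.6 and 58.5 CPM with control siRNA and vehicle. Its response was 0.23 ± 0.09 with E2F1 siRNA (adjusted p = 0.112) and a rise of 0.94 ± 0.10 with control siRNA (difference -0.71 ± 0.13, adjusted p = 0.0209). The call was lost without any 1 of 7 libraries (adjusted p up to 0.0898), and CDK2 overlaps PMEL on the other strand. Among the other E2F and RB family genes 0 of 15 were called by edgeR and 3 had an unadjusted p under 0.05. E2F7, a repressor of the family, had the smallest p there. E2F7 had 10.6, 12 and 9.62 CPM with E2F1 siRNA and R1881 and 29.6, 29.6 and 23.4 CPM with control siRNA and R1881, and its difference was -0.84 ± 0.23 (adjusted p = 0.109, and 0.0141 with the replicate block). E2F2 was scarce at 1.15 to 4.59 CPM over the 12 libraries, and its difference of -0.92 ± 0.54 was not called (adjusted p = 0.651).

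Nucleolar genes of ribosome biogenesis showed 1 lower and 0 higher calls among 30 tested by edgeR, 13 at an unadjusted p under 0.05 and 9 lower calls with the replicate block. Their median difference was -0.37, with 29 of 30 below 0, and R1881 raised 4 with E2F1 siRNA and 25 with control siRNA. TCOF1, the nucleolar protein treacle, had 73.5, 75.1 and 82.6 CPM with E2F1 siRNA and R1881 and 74.3, 67.5 and 86.2 CPM with E2F1 siRNA and vehicle, against 123, 128 and 132 CPM with control siRNA and R1881 and 68.2, 67.9 and 81.4 CPM with control siRNA and vehicle (difference -0.79 ± 0.17, adjusted p = 0.0402). That call was lost without 10 single libraries (adjusted p up to 0.138), and the list had 6 calls without replicate 3 of control siRNA with vehicle.

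**Figure D4:**
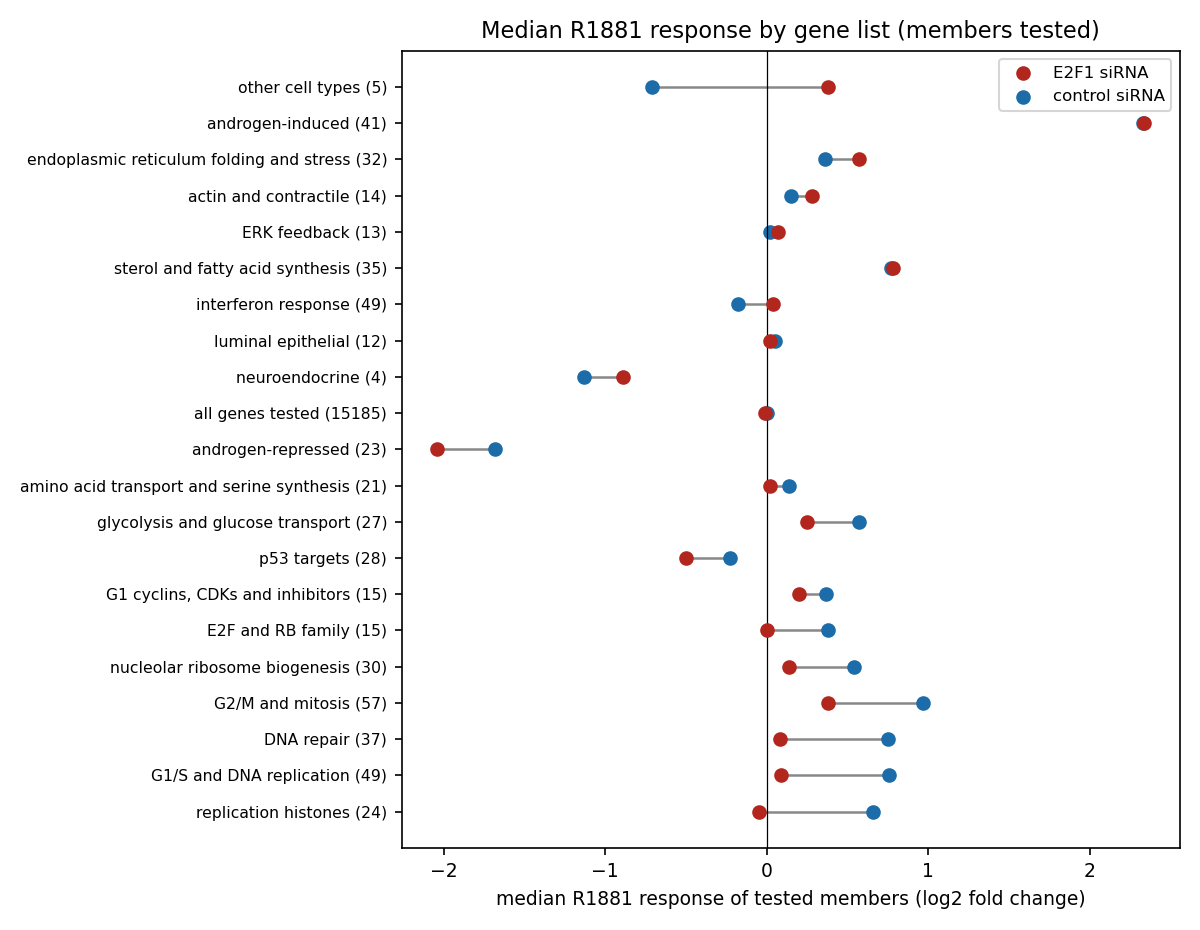
For each gene list, with the number of members tested in brackets, the median R1881 response (x axis, log2 fold change) is shown with E2F1 siRNA (red) and with control siRNA (blue), joined by a line. The replication, repair, histone, mitosis and nucleolar lists have the widest leftward shifts, and the androgen-induced list lies at 2.34 with E2F1 siRNA and 2.33 with control siRNA.

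Other lost rises belonged to no cell cycle list. SERPIND1, heparin cofactor II, was raised by the knockdown in both treatments. It had 11.2, 9.35 and 11.2 CPM with E2F1 siRNA and R1881 and 9.23, 8.31 and 8.62 CPM with E2F1 siRNA and vehicle, against 2.8, 3.21 and 3.46 CPM with control siRNA and R1881 and 1.15, 1.18 and 0.801 CPM with control siRNA and vehicle. Its response was 0.28 ± 0.13 with E2F1 siRNA (adjusted p = 0.168) and a rise of 1.59 ± 0.18 with control siRNA (difference -1.31 ± 0.22, adjusted p = 0.0116). SERPIND1 lies within PI4KA on the other strand, whose own difference was 0.02 (adjusted p = 1). SLC16A10, an aromatic amino acid transporter, had 6.65, 7.01 and 6.13 CPM with E2F1 siRNA and R1881 and 7.84, 10.3 and 7.62 CPM with E2F1 siRNA and vehicle, against 10.8, 12.4 and 11 CPM with control siRNA and R1881 and 6.37, 7.13 and 5.2 CPM with control siRNA and vehicle. The difference was -1.25 ± 0.20 (adjusted p = 0.00781). Both calls held without any 1 of the 12 libraries.

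R1881 lowered 9 lost genes in control cells, and 6 of these had a called knockdown effect in vehicle. P3H2, a prolyl hydroxylase that modifies collagen, had 1.48, 1.39 and 1.87 CPM with E2F1 siRNA and R1881 and 1.32, 1.24 and 1 CPM with E2F1 siRNA and vehicle. With control siRNA it had 2.6, 3.07 and 3.37 CPM with R1881 and 6.45, 7.06 and 8.61 CPM with vehicle. All 6 knockdown libraries lay below all 6 control libraries. It moved by 0.40 ± 0.21 with E2F1 siRNA (adjusted p = 0.376) and fell 2.45-fold with control siRNA (difference 1.70 ± 0.26, adjusted p = 0.00647), a call that held without any 1 library. PEG3, an imprinted zinc finger gene on the androgen-repressed list, had 188, 181 and 179 CPM with E2F1 siRNA and R1881 and 199, 217 and 175 CPM with E2F1 siRNA and vehicle, against 412, 406 and 343 CPM with control siRNA and R1881 and 725, 720 and 615 CPM with control siRNA and vehicle. Its difference was 0.72 ± 0.13 (adjusted p = 0.0206), lost without 6 single libraries (adjusted p up to 0.0717). PEG3 overlaps ZIM2 on the same strand by 30652 bases, and the difference of ZIM2 was 1.5 (adjusted p = 0.622). RELN, reelin, had a difference of 1.12 ± 0.23 (adjusted p = 0.0387), lost without 9 single libraries.

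BST2, the interferon-induced membrane protein tetherin, was the 1 gene called among 49 of the interferon response, and it was scarce. It had 3.12, 3.72 and 3.23 CPM with E2F1 siRNA and R1881 and 2.49, 1.68 and 2.31 CPM with E2F1 siRNA and vehicle, against 0.467, 0.714 and 0.346 CPM with control siRNA and R1881 and 2, 1.25 and 0.934 CPM with control siRNA and vehicle. The difference was 2.03 ± 0.44 (adjusted p = 0.0484), and the call was lost without 11 of the 12 single libraries (adjusted p up to 0.136). The interferon list had a median difference of 0.07. The knockdown raised 17 of its members with R1881, against a background of 4.42%, and 13 with vehicle, against 2.36%, with a median of 0.41 in each. The list also stood higher with E2F2 siRNA. Against control siRNA with vehicle, its library medians were 0.44, 0.55 and 0.37 with E2F1 siRNA and vehicle. They were 0.76, 0.85 and 0.72 with E2F2 siRNA and vehicle. With R1881 they were 0.5, 0.5 and 0.44 with E2F1 siRNA and 1.05, 0.81 and 0.59 with E2F2 siRNA.

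Among blunted falls, MYLK had the largest difference. MYLK, the kinase that activates smooth muscle and nonmuscle myosin, had 10.7, 10.6 and 9.19 CPM with E2F1 siRNA and R1881 and 19.3, 19.4 and 24 CPM with E2F1 siRNA and vehicle, against 7.75, 6 and 10.3 CPM with control siRNA and R1881 and 62.9, 58.9 and 77.4 CPM with control siRNA and vehicle. With R1881 the groups overlapped, and with vehicle the knockdown libraries lay far below the controls. MYLK fell 2.06-fold with E2F1 siRNA (-1.04 ± 0.17) and 8.31-fold with control siRNA (-3.06 ± 0.17), a difference of 2.01 ± 0.23 (adjusted p = 0.000845). The knockdown effect was 0.35 ± 0.17 with R1881 (adjusted p = 0.268) and -1.67 ± 0.16 with vehicle (adjusted p = 1.35e-05). MYLK was the 1 gene called among 14 actin and contractile genes tested.

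NEB, which encodes the thin filament protein nebulin, had 2.46, 4.02 and 4 CPM with E2F1 siRNA and R1881 and 4.83, 6.45 and 6.92 CPM with E2F1 siRNA and vehicle, against 2.4, 2.14 and 2.25 CPM with control siRNA and R1881 and 11.7, 10.5 and 11.6 CPM with control siRNA and vehicle. It fell 1.73-fold with E2F1 siRNA and 4.95-fold with control siRNA (difference 1.52 ± 0.26, adjusted p = 0.0122). The knockdown effect on NEB was -0.89 ± 0.16 with vehicle (adjusted p = 0.004). With R1881 it was 0.62 ± 0.20 and just missed a call (adjusted p = 0.0592). For RCAN2, a regulator of calcineurin, the effect was 1.56 ± 0.21 with R1881 (adjusted p = 0.000179) and 0.02 ± 0.16 with vehicle (adjusted p = 0.988). RCAN2 had 2.05, 2.7 and 2.04 CPM with E2F1 siRNA and R1881 and 4.25, 4.86 and 3.77 CPM with E2F1 siRNA and vehicle, against 0.801, 0.714 and 0.779 CPM with control siRNA and R1881 and 4.22, 4.01 and 4.47 CPM with control siRNA and vehicle (difference 1.54 ± 0.26, adjusted p = 0.0122). NEB and RCAN2 lost their calls without replicate 2 of E2F1 siRNA with R1881 or the same replicate of control siRNA with R1881, with adjusted p up to 0.0548.

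TM4SF1, a membrane protein of the tetraspanin-like L6 family, was a blunted rise outside the cell cycle. It had 17.1, 15 and 15.1 CPM with E2F1 siRNA and R1881 and 3.59, 3.09 and 2.23 CPM with E2F1 siRNA and vehicle, against 21.6, 20.4 and 13.9 CPM with control siRNA and R1881 and 1.3, 1.11 and 0.934 CPM with control siRNA and vehicle. TM4SF1 rose 5.26-fold with E2F1 siRNA and 16.7-fold with control siRNA (difference -1.66 ± 0.31, adjusted p = 0.0206, lost without 6 single libraries).

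Amplified rises included NCAPD3, the gene with the largest difference in that class. NCAPD3 (ENSG00000151503.12, GRCh38 chromosome 11, 134150119 to 134225454, minus strand) encodes a subunit of condensin II. It had 1163, 1069 and 1115 CPM with E2F1 siRNA and R1881 and 107, 113 and 113 CPM with E2F1 siRNA and vehicle, against 279.9, 260.1 and 352 CPM with control siRNA and R1881 and 113, 121 and 121 CPM with control siRNA and vehicle. The groups given R1881 lay far apart, and those given vehicle were close. NCAPD3 rose 10-fold with E2F1 siRNA (3.33 ± 0.15) and 2.52-fold with control siRNA (1.33 ± 0.14), a difference of 2.00 ± 0.20 (adjusted p = 0.000248). ACAD8, a mitochondrial dehydrogenase gene at 134253495 to 134265855 on the plus strand beyond VPS26B and THYN1, was also called, with a difference of 0.93 ± 0.14 (adjusted p = 0.00469). VPS26B, which overlaps the NCAPD3 start by 810 bases on the other strand, had a difference of 0.33 ± 0.12 (adjusted p = 0.327). THYN1 had 0.44 ± 0.16 (adjusted p = 0.284). JAM3, which overlaps the other end of NCAPD3 by 1883 bases on the other strand, had -0.18 ± 0.38 (adjusted p = 0.997), and GLB1L2, beyond ACAD8, had -0.14 ± 0.18 (adjusted p = 0.954). These neighbours were chosen after the values of NCAPD3 were seen.

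Classical androgen targets were called in a few cases, and 3 of the 4 were amplified. Of 41 androgen-induced genes tested, 4 had a higher response with E2F1 siRNA and 0 a lower one by edgeR, 16 had an unadjusted p under 0.05, and 9 were higher with the replicate block. The median difference was 0.23, with 28 above 0. R1881 raised 39 with E2F1 siRNA and 39 with control siRNA, and the median response was 2.34 with E2F1 siRNA and 2.33 with control siRNA. Library medians were 2.82, 2.79 and 2.69 with E2F1 siRNA and R1881 and 0.22, 0.22 and 0.16 with E2F1 siRNA and vehicle, against 2.35, 2.33 and 2.32 with control siRNA and R1881 and 0.03, 0.01 and -0.02 with control siRNA and vehicle. The knockdown raised 17 and lowered 0 of the 41 with R1881, where the backgrounds were 4.42% and 4.92%. With vehicle it raised 7 and lowered 2, where they were 2.36% and 2.92%. The count of 4 fell to 1 or 2 without 8 of the 12 libraries taken singly and was 6 without replicate 3 of control siRNA with vehicle.

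TMPRSS2, the surface protease whose promoter is known to drive ERG in gene fusions of prostate cancer, had 992, 893 and 912 CPM with E2F1 siRNA and R1881 and 75.5, 68.5 and 77 CPM with E2F1 siRNA and vehicle, against 726, 733 and 892 CPM with control siRNA and R1881 and 94.2, 97.9 and 106 CPM with control siRNA and vehicle. It rose 12.7-fold with E2F1 siRNA and 7.9-fold with control siRNA (difference 0.68 ± 0.13, adjusted p = 0.0206). The knockdown effect was 0.25 ± 0.09 with R1881 (adjusted p = 0.0973) and -0.43 ± 0.09 with vehicle (adjusted p = 0.0103). AFF3, a transcription elongation factor, rose 10.7-fold with E2F1 siRNA and 6.05-fold with control siRNA (difference 0.83 ± 0.15, adjusted p = 0.0206), and its knockdown effect was called with R1881 (0.51 ± 0.10) and not with vehicle (-0.31 ± 0.11). Their calls were lost without 7 and 6 single libraries, with adjusted p up to 0.0886 and 0.0766. KLK3 (prostate-specific antigen) had 2365, 2189 and 2093 CPM with E2F1 siRNA and R1881 and 235, 197 and 187 CPM with E2F1 siRNA and vehicle, against 1717, 1650.3 and 1717 CPM with control siRNA and R1881 and 115, 113 and 103 CPM with control siRNA and vehicle. It was higher with the knockdown in vehicle by 0.91 ± 0.12, and its difference of -0.52 ± 0.17 was not called (adjusted p = 0.206).

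The smallest p of all genes belonged to IGF1R, the receptor for insulin-like growth factor 1, which is described after its values were seen. It had 233, 229 and 230.4 CPM with E2F1 siRNA and R1881 and 24.4, 26.2 and 26.4 CPM with E2F1 siRNA and vehicle, against 226, 212 and 236 CPM with control siRNA and R1881 and 50, 47.7 and 53.5 CPM with control siRNA and vehicle. The level with R1881 overlapped between the siRNAs (knockdown effect 0.04 ± 0.07), and the effect with vehicle was -0.97 ± 0.07 (adjusted p = 5.85e-07). IGF1R rose by 3.17 ± 0.07 with E2F1 siRNA and by 2.15 ± 0.07 with control siRNA (difference 1.01 ± 0.10, adjusted p = 0.000248). NCAPD3 and IGF1R thus both counted as amplified, NCAPD3 by its level with R1881 and IGF1R by its level with vehicle.

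ANKRD37, an ankyrin repeat gene that hypoxia induces, had 28.6, 23.8 and 22.3 CPM with E2F1 siRNA and R1881 and 4.61, 3.8 and 2.92 CPM with E2F1 siRNA and vehicle, against 9.08, 8.21 and 9.52 CPM with control siRNA and R1881 and 3.99, 3.94 and 3.67 CPM with control siRNA and vehicle (difference 1.51 ± 0.22, adjusted p = 0.00469). ST6GALNAC1, which makes the sialyl-Tn antigen, had 70.3, 64.9 and 67.7 CPM with E2F1 siRNA and R1881 and 32.5, 34.6 and 35.6 CPM with control siRNA and R1881, over vehicle levels of 0.531 to 1.31 CPM with E2F1 siRNA and 1.3 to 1.38 CPM with control siRNA. Its difference of 1.45 ± 0.31 (adjusted p = 0.0484) was lost without 11 single libraries, with adjusted p up to 0.12. The 4 amplified falls were led by CBLN2, a synaptic organiser, SDC1, the heparan sulphate proteoglycan syndecan-1, and ST7. SDC1 had 31.8, 32.9 and 33 CPM with E2F1 siRNA and R1881 and 71.8, 73.1 and 70.4 CPM with E2F1 siRNA and vehicle, against 67.2, 60.9 and 76 CPM with control siRNA and R1881 and 82.9, 87.7 and 96.6 CPM with control siRNA and vehicle. SDC1 fell by 1.14 log2 units with E2F1 siRNA and by 0.39 with control siRNA (difference -0.75 ± 0.12, adjusted p = 0.0116). The differences of CBLN2 (-1.17 ± 0.20, adjusted p = 0.0138) and ST7 (-0.58 ± 0.12, adjusted p = 0.0442) were lost without 3 and 11 single libraries. Among 23 androgen-repressed genes 1 was called higher (PEG3) and 1 lower (ST7), and the median difference was -0.01, with 12 members below 0 and 11 above. The median response was -2.04 with E2F1 siRNA and -1.68 with control siRNA.

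**Figure D5:**
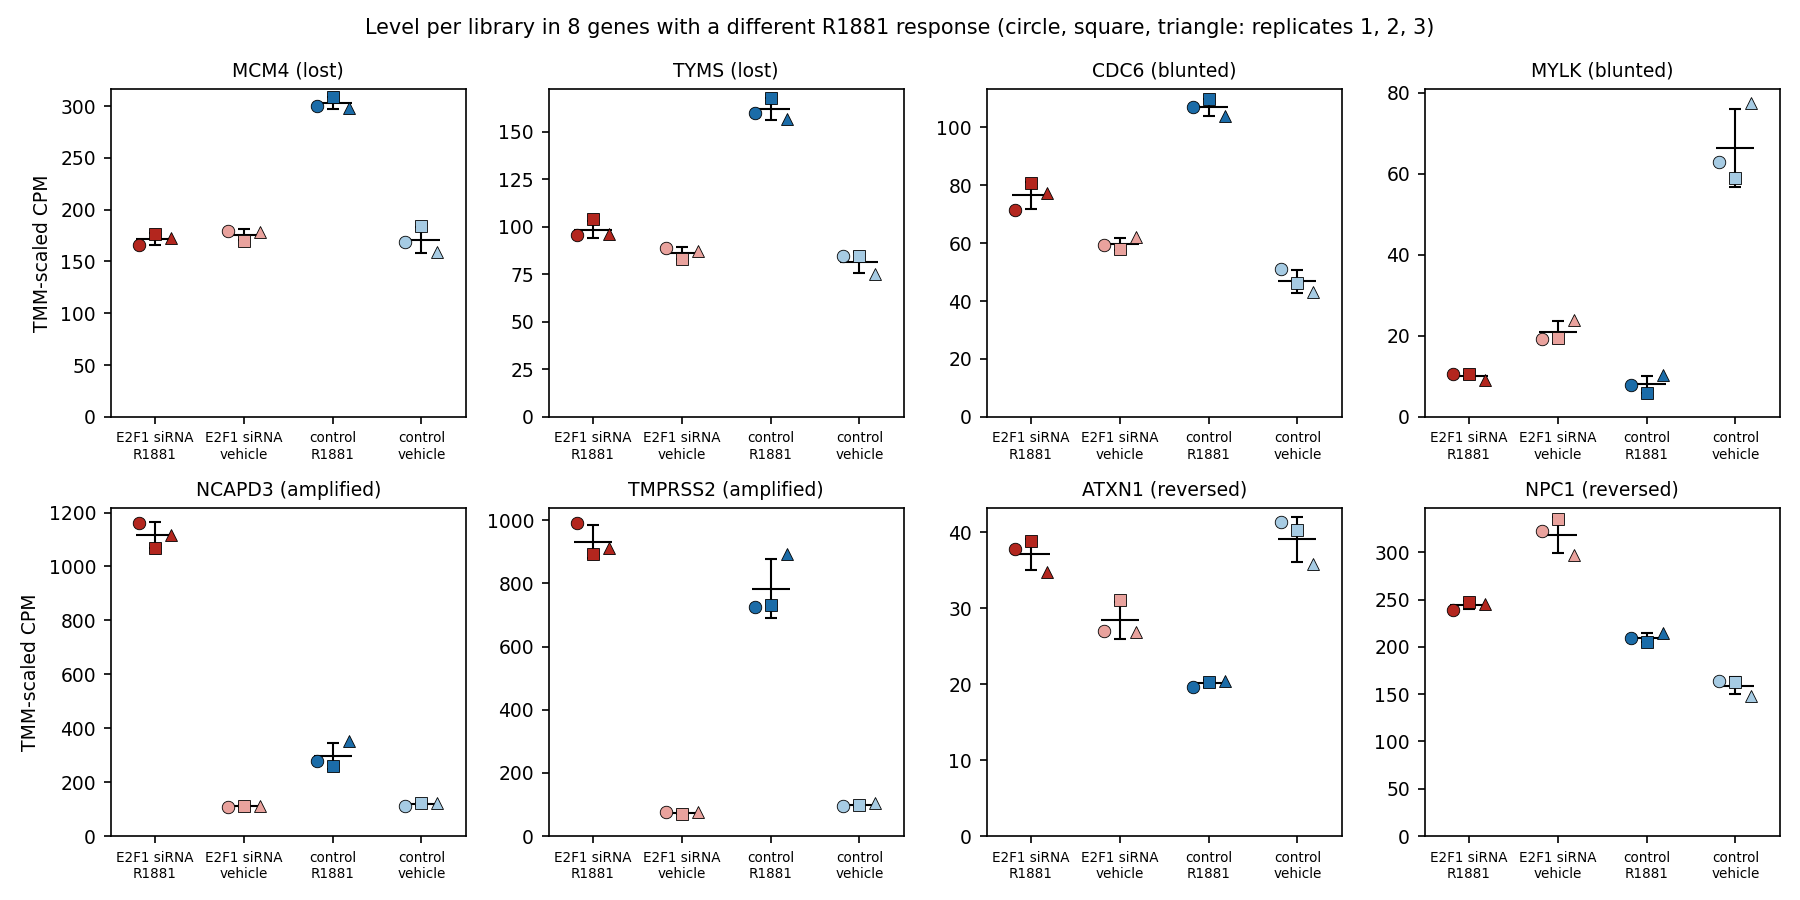
TMM-scaled CPM (y axis, from 0) of 8 called genes in each of the 12 libraries by group (x axis), with a bar at the mean and whiskers of 1 SD (n = 3). MCM4 stands at 298 to 309 CPM with control siRNA and R1881 and at 159.5 to 184 elsewhere, and NCAPD3 at 1069 to 1163 CPM with E2F1 siRNA and R1881 and at 260.1 to 352 with control siRNA and R1881.

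Gained responses comprised 14 rises and 5 falls. APP, the amyloid precursor protein, had 515, 479.9 and 496 CPM with E2F1 siRNA and R1881 and 288, 262 and 319.8 CPM with E2F1 siRNA and vehicle, against 323, 308 and 383 CPM with control siRNA and R1881 and 339, 345 and 401 CPM with control siRNA and vehicle. The libraries with E2F1 siRNA and R1881 lay above all others. APP rose 1.71-fold with E2F1 siRNA (0.78 ± 0.10) and moved by -0.10 ± 0.10 with control siRNA (difference 0.87 ± 0.14, adjusted p = 0.00938). DUSP27 was scarce, at 3.2, 3.29 and 3.83 CPM with E2F1 siRNA and R1881, 0.659, 0.531 and 1 CPM with E2F1 siRNA and vehicle, 2.67, 3 and 2.08 CPM with control siRNA and R1881 and 2.15, 1.87 and 3 CPM with control siRNA and vehicle. Libraries with E2F1 siRNA and vehicle lay below all others, and those with E2F1 siRNA and R1881 lay above all others (difference 2.06 ± 0.36, adjusted p = 0.0138, and 0.0604 without replicate 1 of E2F1 siRNA with vehicle). ADM2, a peptide of the calcitonin family, rose 2.2-fold with E2F1 siRNA and moved by -0.03 ± 0.17 with control siRNA (difference 1.17 ± 0.24, adjusted p = 0.0323, lost without 7 single libraries).

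Gained falls were found in CDCA7L, ZFP36L2 and ICK, among others. CDCA7L, a MYC-interacting nuclear protein, had 23.6, 22.8 and 23.7 CPM with E2F1 siRNA and R1881 and 36.5, 37.4 and 37.2 CPM with E2F1 siRNA and vehicle, against 39.3, 37.8 and 41.8 CPM with control siRNA and R1881 and 33.6, 35.3 and 34.8 CPM with control siRNA and vehicle (difference -0.86 ± 0.15, adjusted p = 0.0147). ZFP36L2, which binds AU-rich messages and promotes their decay, fell 1.68-fold with E2F1 siRNA and moved by 0.22 ± 0.13 with control siRNA (difference -0.97 ± 0.18, adjusted p = 0.0206). ICK, a kinase of cilia, fell 1.87-fold with E2F1 siRNA (difference -0.75 ± 0.15, adjusted p = 0.0325). The knockdown raised ICK in vehicle by 0.80 ± 0.11. It overlaps FBXO9 on the other strand by 9812 bases. These calls were lost without 3, 6 and 8 single libraries, with adjusted p up to 0.0546, 0.076 and 0.106.

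Reversed responses comprised 6 genes that rose and 4 that fell with R1881 under E2F1 siRNA. ATXN1, the polyglutamine protein ataxin-1, had 37.8, 38.8 and 34.8 CPM with E2F1 siRNA and R1881 and 27, 31.1 and 26.9 CPM with E2F1 siRNA and vehicle, against 19.6, 20.3 and 20.4 CPM with control siRNA and R1881 and 41.3, 40.3 and 35.8 CPM with control siRNA and vehicle. R1881 raised ATXN1 by 0.39 ± 0.10 with E2F1 siRNA and lowered it with control siRNA (-0.96 ± 0.10), a difference of 1.35 ± 0.14 (adjusted p = 0.000248). NPC1, which exports cholesterol from lysosomes, ran the other way. It had 239, 247 and 245 CPM with E2F1 siRNA and R1881 and 322, 335 and 297 CPM with E2F1 siRNA and vehicle, against 209, 205 and 215 CPM with control siRNA and R1881 and 164, 163 and 148 CPM with control siRNA and vehicle. NPC1 moved by -0.38 ± 0.06 with E2F1 siRNA and by 0.40 ± 0.06 with control siRNA, both called (difference -0.79 ± 0.09, adjusted p = 0.000845). In vehicle the knockdown raised it by 1.00 ± 0.07. NPC1 overlaps C18orf8 on the other strand, whose difference was -0.18 (adjusted p = 0.831).

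VSIG10L had 8.29, 9.2 and 10.1 CPM with E2F1 siRNA and R1881 and 5.42, 4.69 and 6.69 CPM with E2F1 siRNA and vehicle, against 5.28, 6.43 and 8.56 CPM with control siRNA and R1881 and 13.5, 13.8 and 17.3 CPM with control siRNA and vehicle (difference 1.86 ± 0.25, adjusted p = 0.00264). KCTD1 rose by 0.56 ± 0.11 with E2F1 siRNA and fell with control siRNA (-0.37 ± 0.11) (difference 0.93 ± 0.16, adjusted p = 0.0116, and 0.0548 without replicate 2 of control siRNA with R1881). TSC22D3, the steroid-induced leucine zipper protein GILZ, had 52.5, 51.4 and 52.2 CPM with E2F1 siRNA and R1881 and 42.8, 39.3 and 44.2 CPM with E2F1 siRNA and vehicle, against 30.9, 27.4 and 31.6 CPM with control siRNA and R1881 and 39.1, 36.8 and 43.2 CPM with control siRNA and vehicle. It stands on the androgen-induced list, yet R1881 lowered it in these control cells (-0.41 ± 0.10) and raised it with E2F1 siRNA (0.31 ± 0.10), a difference of 0.71 ± 0.14 (adjusted p = 0.0282). CYP2J2, an epoxygenase of arachidonic acid, and SLC29A1, the nucleoside carrier ENT1, rose with R1881 in control cells and fell with E2F1 siRNA (differences -0.99 ± 0.20 and -1.23 ± 0.27, adjusted p = 0.0338 and 0.0484). The calls of TSC22D3, CYP2J2 and SLC29A1 were lost without 8, 9 and 11 single libraries. When a response was counted from a log2 size of 0.5 in place of its adjusted p, 4 of the 104 were reversed in place of 10.

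Lists with 0 calls by edgeR were read from their medians and from their members at an unadjusted p under 0.05, a share that was 10.2% over all genes. Endoplasmic reticulum genes had a median difference of 0.21, with 29 of 32 above 0, and 7 had an unadjusted p under 0.05. HERPUD1, of the unfolded protein response, averaged 196 ± 11.9 CPM with E2F1 siRNA and R1881 and 110.3 ± 5.87 CPM with E2F1 siRNA and vehicle, against 124 ± 5.22 CPM with control siRNA and R1881 and 102 ± 14.3 CPM with control siRNA and vehicle (SD, n = 3 each). Its difference was 0.56 ± 0.13 (adjusted p = 0.0641, and 0.00904 with the replicate block). Sterol and fatty acid synthesis genes had median responses of 0.78 with E2F1 siRNA and 0.77 with control siRNA and 0 of 35 members at an unadjusted p under 0.05. There ACACA, acetyl-CoA carboxylase, had a difference of 0.16 ± 0.08 (adjusted p = 0.588). The p53 targets had a median of -0.13 with 6 of 28 at an unadjusted p under 0.05, led by DDB2 (-0.71 ± 0.20, adjusted p = 0.139, and 0.0099 with the block). Glycolysis genes had -0.12 with 5 of 27, led by the lactate carrier SLC16A1 (-0.50 ± 0.14, adjusted p = 0.122, and 0.0281 with the block). ERK feedback genes had 0.1 with 3 of 13, led by PHLDA1 (-1.25 ± 0.31, adjusted p = 0.0848, and 0.0317 with the block). Amino acid transport and serine synthesis had -0.11 with 2 of 21, led by SLC1A4 (0.57 ± 0.21, adjusted p = 0.287), and luminal epithelial genes had 0.05 with 5 of 12, led by KLK3. The 4 neuroendocrine genes tested had 0.02 with 0 at an unadjusted p under 0.05, and NTS, at 0 to 1.59 CPM, was first among them (-1.26 ± 0.83, adjusted p = 0.731). The 5 markers of other cell types tested had 0.46 with 1 at an unadjusted p under 0.05, led by PDGFRB at 0.134 to 1.02 CPM (2.32 ± 0.88, adjusted p = 0.322).

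The response with E2F1 siRNA was also set against that with E2F2 siRNA, a comparison that shares the E2F1 siRNA libraries with the one above, so values are given side by side. Here 250 genes were called (1.65%), 131 higher (0.863%) and 119 lower (0.784%). Replication genes with E2F2 siRNA started from a lower level. Their library medians were -0.38, -0.57 and -0.46 with E2F2 siRNA and R1881 and -1.03, -1.14 and -0.99 with E2F2 siRNA and vehicle, and the median response was 0.09 with E2F1 siRNA, 0.48 with E2F2 siRNA and 0.76 with control siRNA. Of the 49 replication genes, 8 were called lower and 0 higher in this comparison. MCM10, 1 of those called, moved by 0.00 ± 0.10 with E2F1 siRNA and rose by 0.90 ± 0.10 with E2F2 siRNA (difference -0.89 ± 0.14, adjusted p = 0.0032). The repair gene CHEK2 moved by 0.03 ± 0.11 with E2F1 siRNA and by 0.23 ± 0.12 with E2F2 siRNA. Its difference of -0.20 ± 0.16 was not called (adjusted p = 0.873). NCAPD3 rose by 3.33 ± 0.15 with E2F1 siRNA and by 1.44 ± 0.14 with E2F2 siRNA (difference 1.88 ± 0.20, adjusted p = 7.6e-05). For MYLK the response was -1.04 with E2F1 siRNA and -3.04 with E2F2 siRNA (difference 2.00 ± 0.23, adjusted p = 0.000177). For SERPIND1 the response was 0.28 ± 0.13 with E2F1 siRNA and a rise of 3.11 ± 0.27 with E2F2 siRNA (difference -2.83 ± 0.31, adjusted p = 9.35e-05). RCAN2 had responses of -0.91 with E2F1 siRNA and -0.73 with E2F2 siRNA, and that difference of -0.18 ± 0.25 was not called (adjusted p = 1). KLK3, whose response did not pass the test against control siRNA, rose by 3.42 ± 0.13 with E2F1 siRNA and by 4.97 ± 0.14 with E2F2 siRNA (difference -1.55 ± 0.17, adjusted p = 9.35e-05).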

How the data were processed

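RNA of LNCaP cells was sequenced in 18 libraries of 6 groups, with TruSeq RNA Exome kits per the labels' protocols. The deposited values are raw counts per gene that the authors made on GRCh38, and the submitters' processing notes list TopHat2 2.0.13, featureCounts from Subread 1.6.4, CASAVA 1.8.2 and Picard 1.97. The strand setting is not given in the sources used here, so reads of 14 named genes that overlap a tested gene on the opposite strand cannot be assigned with certainty. FEN1, PEG3, ST7, HERPUD1, KCTD1 and HIST1H2AM overlap a tested gene on the same strand, which no strand setting would separate. For ST7 that gene is ST7-OT4, with 144908 shared bases. Overlaps were taken over gene bodies, so shared exons were not examined. The siRNA reached the cells 42 h (series text) or 48 h (sample labels) before R1881.

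Counts were fitted with edgeR 4.0.16 in R 4.3.3 (TMM factors, filterByExpr with a minimum count of 10 and a minimum total of 15, quasi-likelihood F test) on 6 group means over all 18 libraries, tested on simulated data. The simulated libraries had no shift shared by a replicate number, and the planted differences were larger than many of those called. That trial therefore does not cover small differences or such a shift. DESeq2 1.42.0, RLE scaling, no filter, the 12 libraries alone, a replicate block with and without GC offsets, a stricter threshold and left-out libraries were alternatives. Same-numbered libraries deviated together in all 18 pairs (correlations 0.128 to 0.796). For 8 of the 12 libraries, the closest library of another group bore the same number. Replicate 3 stood apart in every group, and its part in these correlations was not tested. The fit with the number as a block is given beside counts that it moves. The reported values come from the fit without it, and the labels do not say what a number shares. Positions came from GENCODE release 29 and promoters from the RefSeq table, which covers 71.7% of tested genes; a count of motifs by class is void for that reason.

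Named genes are E2F1 and E2F2, up to 3 called genes per class and direction by size of the difference (mean log2 CPM 1 or more), and up to 4 called members of each of 20 lists by p, or the 1 with the smallest p. Members and lists were chosen with earlier results of these data known.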

Additional observations from a re-analysis of the deposited data

Results flagged for a closer look

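The response to R1881 differed between E2F1 siRNA and control siRNA in 104 genes and between E2F1 siRNA and E2F2 siRNA in 250 genes, by the test of the difference of responses in edgeR. Both comparisons use the E2F1 siRNA libraries. Among the 45 named genes called against control siRNA, 21 also passed the test against E2F2 siRNA. So did 49 of the 104 genes and 1.65% of all genes tested. The 104 were called by a difference that holds the same response with E2F1 siRNA, so nothing is drawn from this overlap. The following values are the log2 response with E2F1 siRNA minus that with E2F2 siRNA. Of the replication and mitosis genes, MCM4 had -0.65, TYMS -0.53, MCM10 -0.89, CDC6 -0.75, FEN1 -0.66, TPX2 -0.58 and BIRC5 -0.55. Of the genes on the androgen-induced list, NCAPD3 had 1.88, TMPRSS2 0.53 and TSC22D3 0.73. R1881 lowered TSC22D3 with control siRNA (-0.41) and with E2F2 siRNA (-0.42). Higher values were also found for MYLK at 2.00, DUSP27 at 1.62, NEB at 1.27, ATXN1 at 1.17, P3H2 at 1.12, KCTD1 at 1.06 and APP at 0.87. Lower values were found for SERPIND1 at -2.83, ST7 at -1.24, NPC1 at -1.07 and SDC1 at -0.92.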

How the results depend on the processing

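The count of genes with a different response moved with most of the settings run. No named gene changed sign in any setting run. Of the 57 named genes, 45 were chosen among those called in the reported fit. Each setting used the same libraries or part of them, so nothing is drawn from the kept signs. RLE scaling gave 113 calls, 55 higher and 58 lower. Without a filter on low counts there were 22 calls (15 higher, 7 lower), 116 against E2F2 siRNA, and 8 lost, 3 blunted, 4 gained, 5 amplified and 2 reversed genes. DESeq2 gave 335 (149 higher, 186 lower) and 389 against E2F2 siRNA, with 152 lost, 61 blunted, 55 gained and 55 amplified. With the 12 libraries alone there were 21 (15 higher, 6 lower), with 3 lost, 3 blunted, 5 gained, 7 amplified and 3 reversed. The replicate block gave 696 (300 higher, 396 lower), R1881 responses in 4661 genes with E2F1 siRNA and 6392 with control siRNA, 732 calls against E2F2 siRNA, and 316 lost, 124 blunted, 98 gained, 119 amplified and 39 reversed. With the replicate block and GC offsets these were 2092 (860 higher, 1232 lower), 6189, 7857, 1709, and 854 lost, 490 blunted, 311 gained, 312 amplified and 111 reversed. Counting responses from a log2 size of 0.5 gave 9 blunted and 4 reversed genes, and an adjusted p under 0.01 gave 25 calls (18 higher, 7 lower). Over left-out libraries and replicate numbers the count ran from 0 to 1844 (higher 0 to 821, lower 0 to 1023), the R1881 responses from 1177 to 5829 with E2F1 siRNA and from 1509 to 7205 with control siRNA, and the calls against E2F2 siRNA from 4 to 1637. The ranges were 0 to 752 lost, 0 to 364 blunted, 0 to 312 gained, 0 to 324 amplified and 0 to 75 reversed. The edgeR count was 0 without replicate number 1 (601 genes at an unadjusted p under 0.05) and 0 without number 2 (751), and 1844 without number 3 (3720), of which 102 were among the 104. The cause was not tested.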
